A study of Homo sapiens with 7 samples.

Results

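RBM15, its paralogs RBM15B and SPEN, and the other subunits of the m6A methyltransferase complex are described here in MEG-01 cells with and without knockdown of RBM15. The genes were chosen by name, as the SPEN family and the m6A writer complex, and they are 9 of the 62238 genes in the count files. MEG-01 is an established human megakaryoblastic leukemia cell line. The series asks how RBM15 acts on RNA, and it holds 3 RNA-seq libraries of total RNA and 4 libraries of RNA immunoprecipitated with antibodies (RIP-seq). The RNA-seq comprised 1 library of MEG-01 cells for which the labels name no knockdown, called the control, 1 library of a stable line carrying shRBM15#1 and 1 library of a stable line carrying shRBM15#2. The labels give lentiviral transgenes for all 7 libraries, the control included, and the same passage number 5, RPMI1640 medium with serum and harvest in exponential growth.

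RBM15 and RBM15B bind RNA through RNA recognition motifs and bring the m6A writer complex to its targets, and both share with SPEN a C-terminal SPOC domain that binds other proteins. The complex adds a methyl group to adenosines of messenger RNA: METTL3 carries out the reaction, METTL14 helps to hold the RNA, and WTAP, VIRMA (KIAA1429 in older annotation), ZC3H13 and CBLL1 form the regulatory part around them. RBM15 is fused to MRTFA (MKL1) by a translocation in acute megakaryoblastic leukemia of infants, and in mice its loss disturbs blood cell formation and megakaryocytes.

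The sequences below are the targets of the shRNAs, shown because the knockdown rests on them and because paralogs could share them. Under each target stands the closest stretch of the same length in the annotated transcripts of RBM15B and of SPEN, with bases that differ from the target in capitals.
shRBM15#1 target in RBM15: gcggaatacaagactctgaa
closest in RBM15B: gcCgaGCCcaagCctctgGa
closest in SPEN: gcgAGatGAaagactctCTa
shRBM15#2 target in RBM15: ccaatggttatgccattctt
closest in RBM15B: ccaaCggCtatgcGGtCctC
closest in SPEN: ccaaCTgttTtgGAaGtcCt
The target of shRBM15#1 lies at chr1:110882526-110882545 and that of shRBM15#2 at chr1:110884588-110884607, on the plus strand of GRCh37, and each was the sole exact match in the genome. Both targets are in the coding sequence in 9 of 9 annotated RBM15 transcripts. The closest stretch of RBM15B differed from either target at 6 of 20 bases, and that of SPEN at 6 bases for shRBM15#1 and 7 bases for shRBM15#2. Transcripts of 2 other genes came within 2 mismatches of the shRBM15#1 target, AMD1 with 8856 reads in control cells, 6683 with shRBM15#1 and 9807 with shRBM15#2, and NNT-AS1 with 872, 431 and 529 reads. For shRBM15#2 the nearest other gene was ENSG00000250080, at 1 mismatch, with 2, 18 and 7 reads in the same order of libraries.

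Reads on exon bins numbered 53230029 in control cells, 41629454 with shRBM15#1 and 52458857 with shRBM15#2. An exon bin is a stretch of a gene model between neighbouring exon boundaries. The shRBM15#1 library stood apart from the others in that 30.4% of its reads fell in no bin, against 21.6% in control cells and 21.9% with shRBM15#2. It also had reads in the most bins, 473473 against 410882 in control cells and 445666 with shRBM15#2. The part of this difference in the results was not tested. With 1 control library, the variation between control cultures was not measured. All p-values rest on the spread between the 2 knockdown lines, which the tests share in part across genes. A p or SE is thus no measure of how far the lines differ in that gene alone. A two-sided permutation test over these 3 libraries cannot give a p below 0.333.

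The cell type label was checked against 8 megakaryoblast markers, whose summed level, as read counts scaled to library size (CPM), was 1299.5 CPM in control cells, 996 CPM with shRBM15#1 and 1238 CPM with shRBM15#2. ITGA2B, the integrin subunit CD41, was the most abundant of them with 45463, 21287 and 31658 reads, and 6 of the 8 markers reached 1 CPM in the control. The markers did not all lie on one side of the control, since ITGB3, the integrin partner of ITGA2B, had 311, 803 and 2702 reads. The transcription factors TAL1 and FLI1 were also above the control in both lines, with log2 fold changes of 0.66 and 0.68, beside -0.76 for ITGA2B and 2.47 for ITGB3, and none of these 4 was called except ITGB3 with no filter on low counts. Read from the most-read bin of each gene, the log2 fold change of ITGA2B was -0.35, and without the shRBM15#2 line that of ITGB3 was 1.52. Of the markers of later maturation, the platelet chemokine PF4 was near 0 with 3, 4 and 2 reads, as was the von Willebrand receptor subunit GP9 with 2, 2 and 5 reads, while GP1BA of the same receptor had 235, 151 and 194 reads. Markers of other cell types, 9 genes in all, summed to 79.9 CPM in control cells, 66.1 CPM with shRBM15#1 and 56.8 CPM with shRBM15#2. Most of this was the epithelial gene EPCAM with 3704, 2441 and 2571 reads. Without EPCAM the other 8 genes summed to 5.1, 11.6 and 7.6 CPM, with the T cell gene CD3D the most abundant and none at 0 in the control. The part of these markers in the results was not tested.

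All 9 genes were expressed in every library. Levels are given as CPM per kilobase of exon bins, so that genes of different length can be set side by side. A read that crosses several bins counts in each of them, so these levels are raised for genes of many short bins, such as METTL3 with 39 bins, against RBM15B with 1 bin, and the order below carries this limit. In the control the order of these levels was RBM15, WTAP, METTL3, VIRMA, SPEN, METTL14, CBLL1, RBM15B and ZC3H13, from 17.2 CPM per kilobase for RBM15 to 4.37 for ZC3H13. The ranges of neighbours in this order overlapped over the 3 libraries, except between VIRMA and SPEN and between RBM15B and ZC3H13. In the control RBM15 had the highest level per kilobase of the 9 genes, while it was the fourth with shRBM15#1 and the fifth with shRBM15#2. WTAP had the highest level per kilobase in both knockdown lines. SPEN was the fifth in control cells and the eighth in both knockdown lines, and ZC3H13 was the lowest in each library. A share of the RBM15B model, 1316 of its 6600 bases, overlaps DCAF1, and reads there were set aside as ambiguous by the counting. Over the bases not shared, RBM15B stood at 5.77 CPM per kilobase in control cells, 7.62 with shRBM15#1 and 9.15 with shRBM15#2.

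**Figure D1:**
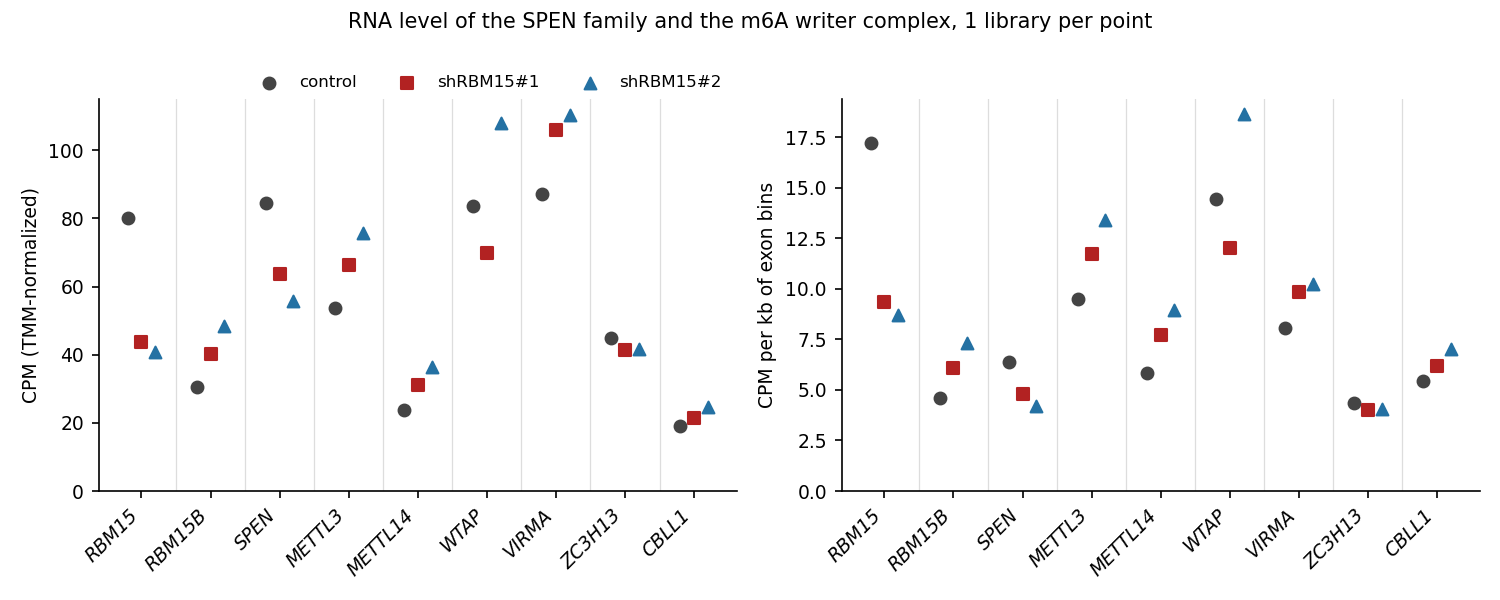
RNA levels of the 9 genes in the 3 RNA-seq libraries, 1 point per library, as CPM (left) and as CPM per kilobase of exon bins (right). RBM15 and SPEN were higher in the control than in either line, RBM15B, METTL3, METTL14, VIRMA and CBLL1 were lower in the control than in either line, ZC3H13 had 3 near-equal values, and the control value of WTAP lay between those of the lines.

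The first comparison, of both knockdown lines with the control, asks whether the RNA of RBM15 itself was reduced and what the RNA of its partners did. None of the 9 genes passed the call rule. RBM15, the targeted gene, was lower in both lines and was the sole member with an unadjusted p under 0.05 in the main test. Below that limit also lay RBM15B and METTL3 with the most-read bin of each gene, and SPEN with no filter on low counts. RBM15B has 1 bin, so its reads with the most-read bin were those of the main test. That fit has its own normalization and its own estimate of spread, which bears on METTL3 as well. In edgeR's quasi-likelihood test with Benjamini-Hochberg adjustment over 24887 genes, 0 of the 9 members had an adjusted p under 0.01, against 86 of all genes tested, or 0.346%. DESeq2 also called 0 of the 9, against 539 of the 15719 genes to which it gave an adjusted p. At an unadjusted p under 0.05 the count was 1 of 9, against 18.8% of all genes tested. That gene was lower in the lines, and 9.17% of all genes tested were lower at the same limit. Both lines lay above the control in 5 of the 9 members, against 39.7% of all genes tested, and both lay below it in 3 of the 9, against 39.5%. The lines share the 1 control library, so a deviation of that library moves both differences alike. In RNA from a whole culture, a change in the make-up of the cells and a change in the RNA of each cell cannot be told apart.

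RBM15 (ENSG00000162775, chr1:110881128-110889299, plus strand, GRCh37) had 3970 reads in control cells, 1957 with shRBM15#1 and 2121 with shRBM15#2. The control library was high and both knockdown libraries were low, which is the direction that the knockdown labels imply. Both lines lay below the control in 39.5% of all genes tested, so this order alone does not check the labels. After TMM normalization these reads were 80.2 CPM, 43.7 CPM and 40.7 CPM. The log2 difference from the control was -0.88 with shRBM15#1 and -0.98 with shRBM15#2, and thus the RNA of the targeted gene was still present in both lines. The fitted log2 fold change was -0.93 (SE 0.227, 2 knockdown libraries against 1 control), with an unadjusted p of 0.00286 in edgeR's quasi-likelihood test and a Benjamini-Hochberg adjusted p of 0.0908. This value stood at percentile 7.2 of the log2 fold changes of all genes tested. Of 9317 other genes with a mean of at least 10 CPM, 385, or 4.13%, were at or below RBM15 in both lines.

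The genes with a pattern most like RBM15 were found by the distance between the 2 log2 differences of each gene and those of RBM15, over the same 3 libraries. The closest was NUF2, a kinetochore protein, at a distance of 0.0204 with 4243, 2079 and 2238 reads in the libraries of control cells, shRBM15#1 and shRBM15#2. MYO1C, an unconventional myosin, followed at 0.0244 with 3259, 1605 and 1712 reads. CDK5RAP2, a centrosomal protein, stood at 0.0253 with 4257, 2080 and 2309 reads. All 3 were high in the control and low in both lines, as RBM15 was. ENSG00000232884 at 0.0361 and APOL6 at 0.0434 completed the 5 closest, and 29 genes lay within a distance of 0.1.

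**Figure D2:**
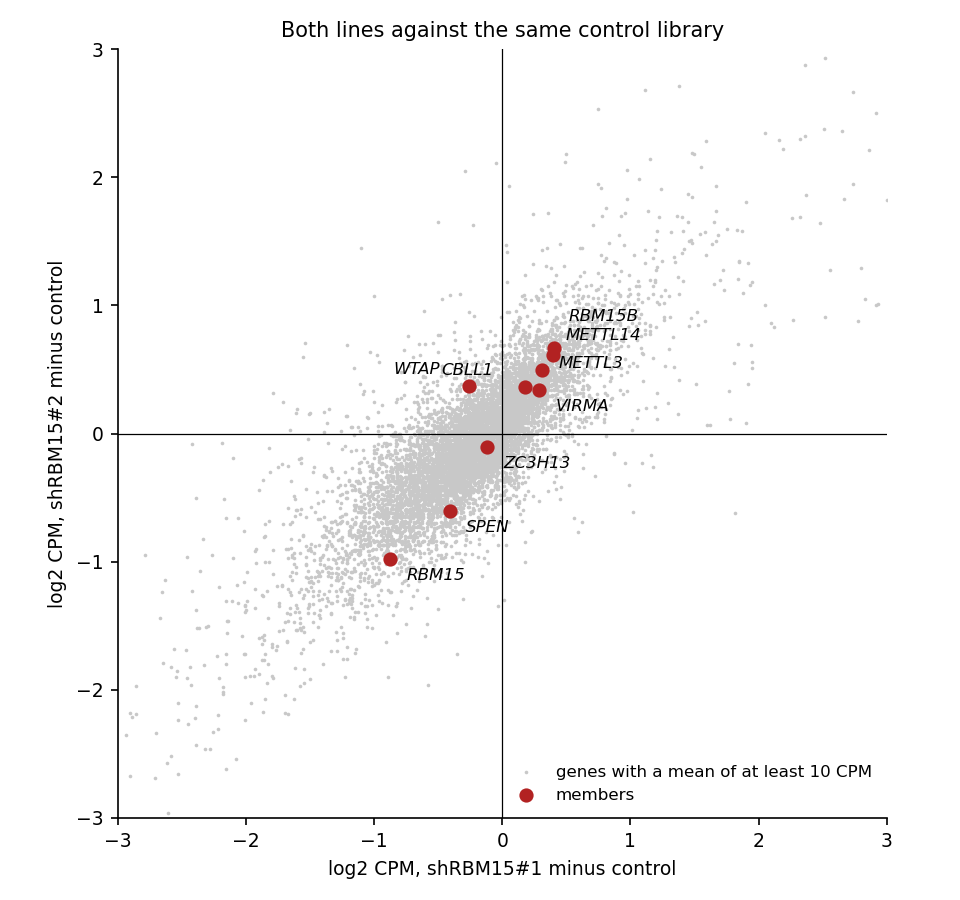
Log2 difference in CPM from the control library for shRBM15#1 (horizontal) and shRBM15#2 (vertical), 1 point per gene with a mean of at least 10 CPM, with the 9 members in red; genes beyond the axis limits of 3 are not drawn, and both axes share the control library. RBM15 and SPEN lie at the lower left, RBM15B and METTL14 at the upper right of the members, and WTAP at the upper left.

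The paralogs of RBM15 lay on opposite sides of the control. RBM15B (ENSG00000179837, chr3:51428731-51435330), the closest paralog and an alternative adaptor of the writer complex, had 1508 reads in control cells, 1802 with shRBM15#1 and 2523 with shRBM15#2. Its CPM was lowest in the control at 30.5, and 40.3 and 48.4 in the lines. The log2 difference was 0.40 with shRBM15#1 and 0.67 with shRBM15#2. The fitted log2 fold change of 0.54 (SE 0.259) did not pass, with an adjusted p of 0.302 in edgeR's quasi-likelihood test with Benjamini-Hochberg adjustment. RBM15B is read from a single exon bin that overlaps DCAF1, so it has no value when overlapping bins are left out.

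SPEN (ENSG00000065526, chr1:16174359-16266955), the large corepressor after which the family is named, had 4187 reads in control cells, 2847 with shRBM15#1 and 2903 with shRBM15#2. Its CPM was highest in the control at 84.6, and 63.6 and 55.6 in the lines. SPEN was thus lower than the control in both lines, like RBM15 and unlike RBM15B, with log2 differences of -0.41 and -0.61. The fitted log2 fold change of -0.51 (SE 0.228) had an adjusted p of 0.276 in edgeR's quasi-likelihood test with Benjamini-Hochberg adjustment and did not pass.

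The balance between the paralogs differed between the control and the lines. The level per kilobase of RBM15 was 3.72 times that of RBM15B in control cells, 1.54 times with shRBM15#1 and 1.19 times with shRBM15#2. The ratios of the lines were below that of the control. Over the bases that each gene shares with no other gene, RBM15 stood at 17.9 CPM per kilobase in control cells, 9.73 with shRBM15#1 and 9.05 with shRBM15#2, and RBM15B at the 5.77, 7.62 and 9.15 given above. By that measure RBM15B lay slightly above RBM15 with shRBM15#2, which was not so over the whole models. The RBM15 length counts bin 001, 817 bases outside the reference transcript with 0.91 CPM per kilobase in that line. The order of the paralogs with shRBM15#2 thus depends on the gene model and is not settled. The sum of both genes was 21.8 CPM per kilobase in control cells, 15.5 with shRBM15#1 and 16.0 with shRBM15#2. The level per kilobase of RBM15 was 2.70 times that of SPEN in control cells, 1.96 times with shRBM15#1 and 2.08 times with shRBM15#2. No test was run on these ratios.

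METTL3 (ENSG00000165819, chr14:21966277-21979517, minus strand), the catalytic subunit, had 2654 reads in control cells, 2970 with shRBM15#1 and 3951 with shRBM15#2. Its CPM was lowest in the control at 53.6, and 66.3 and 75.7 in the lines. METTL14 (ENSG00000145388, chr4:119606523-119633806), its partner in the catalytic core, had 1171, 1396 and 1892 reads, which gave 23.7 CPM in control cells and 31.2 and 36.3 CPM in the lines. Both subunits of the core were thus lowest in control cells and highest with shRBM15#2. The log2 differences were 0.31 and 0.50 for METTL3. They were 0.40 and 0.62 for METTL14. Neither gene passed, with an adjusted p in edgeR's quasi-likelihood test with Benjamini-Hochberg adjustment of 0.390 for METTL3 (fitted log2 fold change 0.41, SE 0.237) and of 0.332 for METTL14 (0.51, SE 0.264). The fitted log2 fold change of METTL3 was 0.67 when each gene was read from its most-read bin alone, where it also did not pass. The level per kilobase of METTL3 was 1.62 times that of METTL14 in control cells, 1.52 times with shRBM15#1 and 1.5 times with shRBM15#2, so this ratio differed little between the libraries.

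WTAP (ENSG00000146457, chr6:160146617-160177351), which holds the regulatory subunits to the catalytic core, was the member whose lines lay on opposite sides of the control. It had 4139 reads in control cells, 3123 with shRBM15#1 and 5634 with shRBM15#2, which gave 83.6 CPM, 69.8 CPM and 108.0 CPM. The log2 difference was -0.26 with shRBM15#1 and 0.37 with shRBM15#2. The fitted log2 fold change of 0.088 (SE 0.290) had an adjusted p of 0.903 in edgeR's quasi-likelihood test with Benjamini-Hochberg adjustment, and its sign turned to -0.25 without the shRBM15#2 line and to -0.036 with no filter on low counts.

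VIRMA (ENSG00000164944, chr8:95499921-95565757, minus strand), the largest scaffold of the complex, had 4307 reads in control cells, 4748 with shRBM15#1 and 5757 with shRBM15#2. Its CPM was 87.0 in control cells and 106.1 and 110.3 in the lines, which lay close to each other and above the control. The log2 differences were 0.29 and 0.34, and the adjusted p was 0.488 in edgeR's quasi-likelihood test with Benjamini-Hochberg adjustment. ZC3H13 (ENSG00000123200, chr13:46528600-46626894, minus strand), which links the complex to RBM15 and helps to keep it in the nucleus, had 2220, 1846 and 2177 reads. Its CPM of 44.9 in control cells, 41.2 with shRBM15#1 and 41.7 with shRBM15#2 varied least among the members. CBLL1 (ENSG00000105879, chr7:107384142-107400131), the HAKAI ubiquitin ligase subunit, had the fewest reads of the members, 945 in control cells, 965 with shRBM15#1 and 1280 with shRBM15#2. Its CPM was 19.1 in control cells, 21.6 with shRBM15#1 and 24.5 with shRBM15#2, lowest in the control. The adjusted p in the same test was 0.841 for ZC3H13 (fitted log2 fold change -0.11) and 0.638 for CBLL1 (0.27). The value of ZC3H13 was -0.25 with the most-read bin, and with no filter on low counts it was -0.25 for ZC3H13, 0.14 for CBLL1 and 0.18 for VIRMA (0.31 with the filter).

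The 8 members without RBM15 had a median log2 fold change of 0.29, beside 0.017 for all 24887 genes tested. Both lines lay above the control in 5 of these 8 genes and below it in 2, against 39.7% and 39.5% of all genes tested. With no filter on low counts, the median of the same 24887 genes moved by -0.13. Relative to the median of all genes, RBM15 stood at -0.94 with the filter and -0.95 without it, RBM15B at 0.52 and 0.53, SPEN at -0.52 and -0.53, and METTL14 at 0.49 and 0.50.

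The other m6A genes and the partners of SPEN-family proteins, 28 genes in all, had a median log2 fold change of -0.086. None of the 28 passed edgeR's quasi-likelihood test at an adjusted p under 0.01, against 0.346% of all genes tested, and DESeq2 called 0 as well, against 539 of 15719 genes. At such shares a count of 0 says little about a list of this size, while at an unadjusted p under 0.05 the counts were 2 higher and 2 lower, against 18.8% of all genes tested in either direction. Both lines lay above the control in 11 of the 28 genes and below it in 15, against 39.7% and 39.5% of all genes tested. The demethylases that remove m6A were FTO, with 1264 reads in control cells, 1123 with shRBM15#1 and 1165 with shRBM15#2, and ALKBH5, with 2870, 3285 and 3865 reads. The 12 genes of m6A readers had a median log2 fold change of 0.084, with both lines above the control in 6 and below it in 5, beside the same 39.7% and 39.5%. This median was -0.048 with no filter on low counts and 0.20 with the most-read bin. PRRC2A, a reader, had 10728 reads in control cells and 5575 and 6753 in the lines, a log2 fold change of -0.77 (SE 0.215) with an adjusted p of 0.121 in edgeR's quasi-likelihood test with Benjamini-Hochberg adjustment. YTHDF2, a reader that shortens the life of methylated messenger RNA, had 3924, 4537 and 6438 reads, with both lines above the control.

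Other methyltransferases of RNA and their partners, 5 genes, had a median log2 fold change of -0.28, with both lines above the control in 2 and below it in 3. PCIF1, which methylates the adenosine next to the cap, had a log2 fold change of -0.63 with both lines below the control, and did not pass. With the most-read bin its value was -0.14, and the median of the 5 genes was -0.079. TRMT112, the activator of several methyltransferases, had 9290 reads in control cells, 12400 with shRBM15#1 and 14273 with shRBM15#2, a log2 fold change of 0.55 (SE 0.225) with an adjusted p of 0.24 in the same test. Of the 7 partners of SPEN-family proteins both lines lay below the control in 5 and above it in 1, against 39.5% and 39.7% of all genes tested, with a median log2 fold change of -0.24, or -0.13 with the most-read bin. ASH2L, a subunit of histone H3 methyltransferase complexes, had 3836, 1931 and 2896 reads (log2 fold change -0.65, adjusted p 0.214 in the edgeR test). The RNA export receptor NXF1 had 2572, 3092 and 4545 reads (log2 fold change 0.59, adjusted p 0.257 in the edgeR test). The enzymes that modify RBM15 protein were PRMT1, an arginine methyltransferase with 41853, 32234 and 40334 reads, and CNOT4, a ubiquitin ligase with 773, 717 and 819 reads. Their log2 fold changes were -0.18 and 0.022, but -0.006 and 0.58 with the most-read bin, and that of CNOT4 was -0.11 with no filter on low counts.

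**Figure D3:**
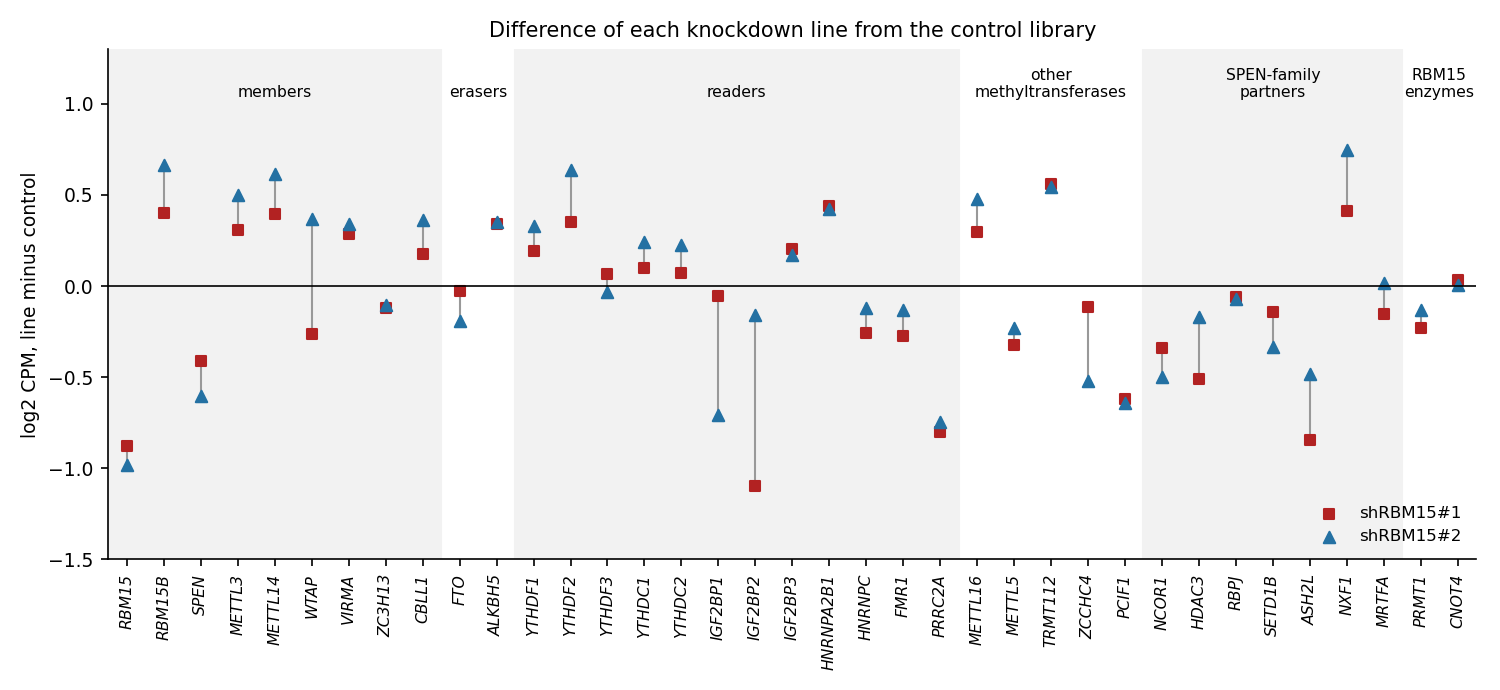
Log2 difference in CPM of each knockdown line from the control library for the 9 members and the 28 other genes, grouped by role, with shRBM15#1 as squares and shRBM15#2 as triangles. Lines join the values of a gene, and RBM15 and PRRC2A are the genes with both values at or below -0.74.

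The second comparison asks whether the knockdown moved the use of exon bins within the members, by the reads of a bin relative to those of its gene. No bin of RBM15 passed. A single bin of METTL3 did, but it met the minimum read count only through its control reads, so its call supports no result. The members have 196 bins, of which 190 had a read and 163 were tested. With diffSpliceDGE of edgeR, 1 of the 163 bins was called at an unadjusted p under 0.05 and a relative fold above 1.2, or 0.613%, against 1.45% of all 234192 bins tested. The bin was lower in the lines, and 0.787% of all bins tested were called as lower. With Benjamini-Hochberg adjustment 0 of the 163 had an adjusted p under 0.05, against 48 of all bins tested, or 0.0205%. By gene, 1 of the 8 members tested had a called bin, against 15.2% of the genes tested. RBM15B has 1 bin and could not be tested. Shares of reads are given with 95% Wilson intervals, which cover counting error only.

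Bin 002 of RBM15, 2946 bases long, holds most of the coding sequence and both shRNA targets shown above, which start at base 582 and base 2644 of the bin. It had 2876 reads in control cells, 1296 with shRBM15#1 and 1451 with shRBM15#2. These were 72.4% (71.0 to 73.8) of the reads of the gene in control cells, 66.2% (64.1 to 68.3) with shRBM15#1 and 68.4% (66.4 to 70.4) with shRBM15#2. The bin that holds the targets thus carried most reads in each library, and its share was highest in control cells, with a relative log2 fold change of -0.11 (p 0.677 in edgeR's test). Bin 003 continues past the splice site of the first exon and belongs to 1 annotated transcript that ends there. It had 334, 245 and 234 reads, which were 8.41% (7.59 to 9.32) of the gene in control cells, 12.5% (11.1 to 14.1) with shRBM15#1 and 11.0% (9.77 to 12.4) with shRBM15#2. The share was lowest in control cells and its interval did not reach those of the lines, while the relative log2 fold change of 0.49 (SE 0.267) did not pass, with a p of 0.101 in edgeR's test. Bins 003 and 005 were singled out after their values were seen. The last bin, 005, had 467, 235 and 261 reads, or 11.8%, 12% and 12.3% of the gene. Bin 001 had the smallest p of the RBM15 bins, 0.0886 in edgeR's test, with 32, 22 and 39 reads.

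**Figure D4:**
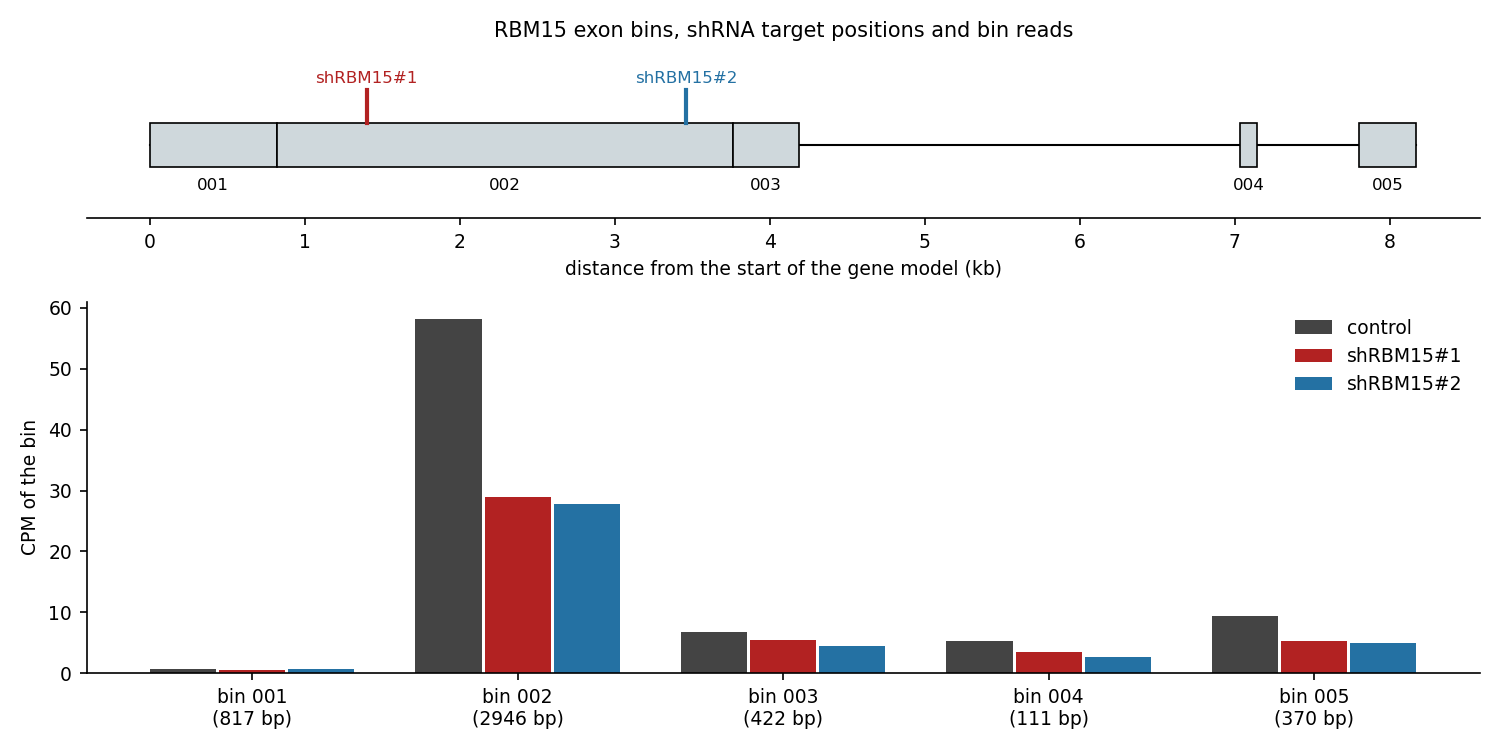
Gene model of RBM15 as exon bins with the start of each shRNA target, by distance from the start of the model in kilobases, and the level of each bin as CPM, 1 bar per library. Bin 002, which holds both targets, carries most reads in all 3 libraries, and its bar in the control stands at 58.1 CPM against 28.9 and 27.8 CPM in the lines.

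The called bin was bin 033 of METTL3, at chr14:21979056-21979122, 67 bases in an intron of the reference transcript that 1 annotated transcript holds. It had 19 reads in control cells, 7 with shRBM15#1 and 7 with shRBM15#2. These were 0.716% (0.459 to 1.12) of the METTL3 reads in control cells, 0.236% (0.114 to 0.486) with shRBM15#1 and 0.177% (0.0858 to 0.365) with shRBM15#2. The control was high and the lines were low, and the relative log2 fold change was -1.80. The unadjusted p was 0.0041 and the Benjamini-Hochberg adjusted p was 1.0 in edgeR's test. The bin met the minimum of 30 reads over the libraries only through its control reads, where it was high. The filter thus favoured a lower value in the lines, and no conclusion is drawn from this call. With a summed bin count of at least 300 the bin was not tested. The 13 bins in introns of the METTL3 reference transcript, summed after their values were seen, held 392 reads in control cells, 338 with shRBM15#1 and 444 with shRBM15#2. This was 14.8% (13.5 to 16.2) of the METTL3 reads in control cells, 11.4% (10.3 to 12.6) with shRBM15#1 and 11.2% (10.3 to 12.3) with shRBM15#2, a share that was highest in the control. At the 3′ end of METTL3, 6 of its 39 bins had no read in any library, and these bins overlap TOX4.

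In the other members no bin was called. The bin with the smallest p in ZC3H13 was bin 010, a coding bin with 65 reads in control cells, 92 with shRBM15#1 and 96 with shRBM15#2. It had a p of 0.0509 in edgeR's test with a relative log2 fold change of 0.68. In VIRMA it was bin 004 in the 3′ untranslated region, with 51, 102 and 94 reads, a p of 0.0622 in edgeR's test and a relative log2 fold change of 0.67. In both genes the control had the lowest share of the bin. WTAP has alternative 3′ ends, which were looked at after their values were seen. Its bin 012, where the short form ends, held 17.4% (16.3 to 18.6) of the WTAP reads in control cells, 17.0% (15.7 to 18.3) with shRBM15#1 and 15.3% (14.4 to 16.3) with shRBM15#2. Bin 012 overlaps ENSG00000112096, and reads on shared bases were set aside as ambiguous, so its share may be understated. The last bin of WTAP overlaps no other gene. Its last bin, 014 of the long form, held 32.5% (31.1 to 34) in control cells, 29.8% (28.2 to 31.4) with shRBM15#1 and 33.7% (32.5 to 35) with shRBM15#2, so the intervals of the control overlapped those of at least 1 line in both bins. The smallest p of any bin in WTAP was 0.377 in edgeR's test, in METTL14 0.108, in CBLL1 0.245 and in SPEN 0.327.

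**Figure D5:**
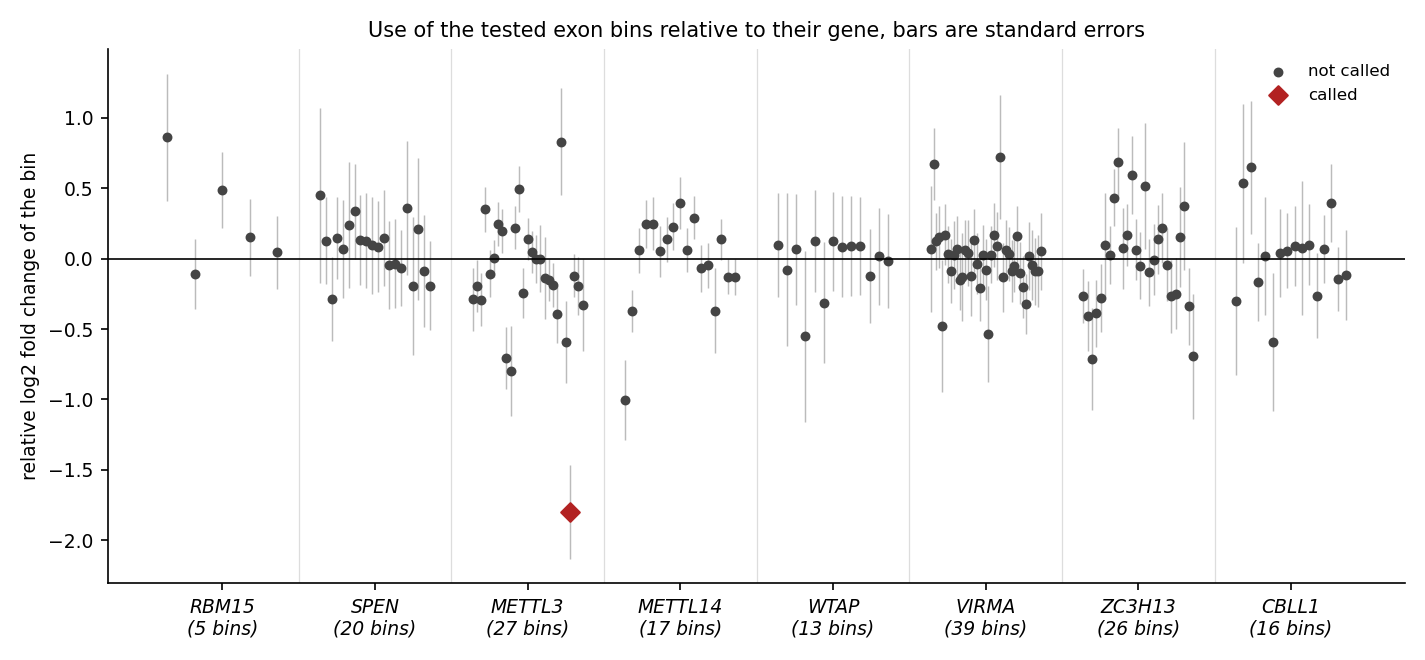
Relative log2 fold change of the 163 tested bins of the members, in the order of the bins along each gene model, 1 point per bin. Bars are the size of the value divided by the square root of the F statistic of edgeR's test. In METTL3, METTL14, VIRMA, ZC3H13 and CBLL1 they are shorter than the p-values of the bins imply, and they are not fitted standard errors. The called bin of METTL3 (diamond) stands at -1.80, and RBM15B is not shown because it has a single bin.

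The third comparison asks whether RNA of the members was among the sites of the RIP-seq list. In the RIP-seq, libraries that carry the same label were far apart in their reads over the listed sites, and libraries of different labels were close. Replicates of a label are numbered here in the order of deposition. Over the 1515 sites of the list, the library labelled normal immunoglobulin replicate 1 had 28387 reads, the library labelled normal immunoglobulin replicate 2 had 610915, the library labelled RBM15 antibody replicate 1 had 28845 and the library labelled RBM15 antibody replicate 2 had 807871. The libraries labelled replicate 1 were thus low and those labelled replicate 2 high with either antibody. The part of depth in these totals was not tested, and the labels could not be checked from them. An exchange of labels between the library labelled normal immunoglobulin replicate 2 and the library labelled RBM15 antibody replicate 1 was not tested, and it would change which antibody the reads at each site stand for. No comparison between the antibodies is made, and sites are counted as listed. The list holds solely peaks that passed the comparison of the authors, so the depth of the libraries is unknown here and the absence of a site is no measure of binding.

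None of the 9 members had a listed site by gene symbol, against 909 of 24330 tested genes with a symbol, or 3.74%. No test was run on this count. The count was also 0 of 9 by overlap with the span of each gene, and with the span widened by 5 kb on each side. For these spans no share of all genes is given. Among the 4939 tested genes with a control level between those of the lowest and the highest member, 19.1 to 87.0 CPM, 315 had a site, or 6.38%.

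Of the 28 other genes 5 had a site by symbol, beside 3.74% of the tested genes. By overlap with the span of the gene the count was 6, with METTL5 added, and with the span widened by 5 kb it was 7, with HDAC3 added. No share of all genes is given for these spans, nor one for genes of the same levels as the 28. The counts are therefore listed without a result being drawn from them. HNRNPA2B1, a proposed nuclear reader of m6A, had a site in its 3′ untranslated region at chr7:26231502-26231882. The reads there were 333 and 7890 in the libraries labelled normal immunoglobulin replicates 1 and 2, and 336 and 10140 in those labelled RBM15 antibody replicates 1 and 2. HNRNPC, which binds RNA where m6A opens its structure, had a site in its 3′ untranslated region at chr14:21679078-21679338 with 50, 588, 54 and 875 reads in the same order of libraries. The others were TRMT112 at chr11:64084181-64084417 in the 3′ untranslated region, and METTL16 at chr17:2379251-2379844 and NCOR1 at chr17:15977269-15977723 in introns. At each of these 5 sites the libraries labelled replicate 2 held more reads than those labelled replicate 1.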

How the data were processed

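RNA-seq reads, paired and without strand information, had been mapped by the authors to GRCh37 (hg19) with STAR, and the deposited values are raw counts of reads in each exon bin of Ensembl 70 gene models. For the RIP-seq, the authors trimmed reads with Trimmomatic, aligned them with STAR, called peaks on the pooled coverage and tested them with DESeq. Their deposited list holds raw read counts per peak and library. The deposited tables also hold fold changes, p-values and false discovery rates of the authors' own comparisons, which were not used. Lines that name no gene held 23.2%, 32.0% and 23.5% of the reads in the control, shRBM15#1 and shRBM15#2 libraries and were left out, as were 809 wrapped lines of the table of the whole series, from which bin positions were read.

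Symbols came from GENCODE lifted to GRCh37 and were found for 54955 of 62238 genes, 54481 through the identifier and 474 through spans with a reciprocal overlap of 90% or more. Bin counts were summed per gene, so a read over several bins counts in each. Genes with 30 or more reads over the libraries were tested with edgeR 4.0.16 in R 4.3.3 (TMM factors 0.931, 1.08 and 0.996, quasi-likelihood test, Benjamini-Hochberg adjustment over all genes) and called at an adjusted p under 0.01. The same minimum was set for each bin, in genes with 2 or more such bins, before diffSpliceDGE. DESeq2 1.42.0 was used as an alternative. The shRNA targets were read from the supplementary table of oligonucleotides and searched in the genome and in annotated transcripts with Python 3.11.15, pandas 2.3.3 and numpy 2.4.6. Intervals were computed with scipy 1.17.1 and plots drawn with matplotlib 3.10.9.

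The genes named are the 9 members, fixed lists of 28 further genes, the marker lists, the 5 genes closest to RBM15, genes within 2 mismatches of an shRNA target, and, in each member, the called bins, the bin with the smallest p and the bins with an shRNA target. Bins 003 and 005 of RBM15, bins 012 and 014 of WTAP and the sum over METTL3 intron bins were added after their values were seen. A gene of the partner list and a marker are not reported here. Members and lists were chosen with earlier results of these data known. The tests across genes and bins were tested on simulated data, but the outcome is not reported here, so no error rate is given for them. Alternatives were another normalization, another test, other count filters, the most-read bin of each gene, bins that overlap another gene left out, and leaving out each line.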

Additional observations from a re-analysis of the deposited data

How the results depend on the processing

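No paired analysis was possible because there is 1 control library. The fitted log2 fold change of RBM15 ranged from -1.06 to -0.90 over 5 alternatives with a test, with adjusted p between 0.0323 and 0.119, and was -0.98 without line shRBM15#1 and -0.87 without shRBM15#2. The members called stayed at 0 of 9 in the edgeR and DESeq2 alternatives, and those with a RIP-seq site at 0 in both other assignments. Without a line, 1 library remains on each side and no test is given. RBM15B has no value with overlapping bins left out.

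The 86 genes called (17 higher, 69 lower) became 191 (53 and 138) with size factors, 539 (201 and 338) with DESeq2, 801 (275 and 526) with no filter, and 0 with the most-read bin of each gene by edgeR, where 3494 had an unadjusted p under 0.05. The 3392 bins called became 8733 with a summed bin count of at least 1, 736 with at least 300 and 48 at an adjusted p. The called bin of the members became 0 with at least 300 and 0 at an adjusted p. With no filter the sign turned for WTAP (-0.036), YTHDF3 (-0.12), CNOT4 (-0.11) and the medians of the erasers (-0.014) and the readers (-0.048). With the most-read bin it turned for FTO (0.26), YTHDF3 (-0.031), FMR1 (0.16), GATA1 (0.12) and the median of PRMT1 and CNOT4 (0.29). Without a line the values ran from -0.25 to 0.37 for WTAP, from -0.032 to 0.077 for YTHDF3, from -0.14 to 0.017 for MRTFA, from -0.24 to 2.43 for CD3E and from -0.25 to 0.071 for AMD1. The cause was not tested for any of these changes. Among the fits with a test, 274 other values of single genes kept their direction and their side of the threshold, and ITGB3 passed it with no filter (2.36). Of the list medians under these fits, 19 moved by less than the spread of the lines and 8 by more, without a change of sign.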
